A study of Homo sapiens with 8 samples.

Results

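Mitochondrial ribosomal proteins are the protein parts of the mitochondrial ribosome, or mitoribosome, and 77 genes encoding them were measured among 18821 genes with a symbol. They were taken by name, as every symbol made of MRPL (large subunit) or MRPS (small subunit), a number and at most 1 further letter. This naming rule used no measured value, but the family was chosen with earlier results of these data known. Of the 77 genes, 49 carried a large-subunit and 28 a small-subunit symbol. They were read by 104 of the 29187 probes, 27 of them by more than 1 probe, and all 77 were tested because no filter on low values was used. All 77 matched a RefSeq gene by identifier, and RefSeq holds 77 genes with such symbols.

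The mitoribosome translates the few messages of the mitochondrial genome, which encode core subunits of the respiratory chain and of the ATP synthase. Its RNAs come from mitochondrial DNA, whereas its proteins are encoded in the nucleus, made in the cytosol and imported. The small subunit holds the message and the decoding site, and the large subunit forms peptide bonds beside the inner membrane into which most products are inserted. In liver cells the respiratory chain takes up the electrons released when fatty acids are oxidised in mitochondria.

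RNA came from HepG2, an established human hepatoblastoma line used as a model of hepatocytes. On each of 8 arrays, untreated cells were labelled with Cy5 and treated cells with Cy3, and dyes were not swapped. All treated cells were first loaded with fatty acid for 24 h, with 400 µM oleate bound to bovine albumin at 6.6 to 1 by the protocol, while another label names oleate together with palmitate. After a wash they spent 24 h in medium lacking serum, with no compound (lipid-loaded, 3 arrays), with 100 µM fenofibrate, a PPARα agonist prodrug (3 arrays), or with 1 mM linalool, a plant monoterpene alcohol (2 arrays). Whether the untreated cells also went without serum is not stated. The model is a tumour line in culture, and each ratio is against untreated cells rather than against loaded cells.

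Values are log2 ratios with the sign the authors deposited. Which dye is the numerator is not given, so a positive ratio may stand for more or for less RNA in the treated cells, and signs are comparable across arrays but not readable as up or down. The number of arrays limits the precision. The labels call the arrays biological replicates without naming separate cultures, so the p-values below reflect spread that may be technical and belong to these samples alone. A dye effect particular to a gene stays in each ratio against untreated cells. The ratios hold no level per gene, so the presence of hepatocyte markers could not be checked by level, and fewer cells of a type and less RNA per cell cannot be told apart. Fenofibrate replicate 3 stood apart, with correlations over all genes of 0.0706 to 0.101 with the other arrays, so fenofibrate values that it moved by over 1.5 times are also given without it. The arrays also differed in spread: the SD over all genes ran from 0.524 to 0.687 on the lipid-loaded, 0.434 to 0.514 on the fenofibrate and 0.432 to 0.440 on the linalool arrays.

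On the lipid-loaded arrays nearly the whole family lay on the positive side. Of 77 genes, 74 had a positive mean ratio, as did 49.9% of all genes tested, and the family's median was 0.70 (quartiles 0.60 and 0.79) against −0.0032 over all genes. By limma, with Benjamini-Hochberg adjustment over all 18819 genes tested and a threshold of 0.05, 61 members were called positive and 1 negative (n = 3 arrays). Calls thus covered 80.5% of the members, against 34.8% of all genes tested (24.1% positive, 10.7% negative). At an unadjusted p under 0.05 there were 65 members, where 48.8% of all genes passed. Without lipid-loaded replicate 1 no member and no gene was called. Then 56 members had an unadjusted p under 0.05 and the members' median was 0.60. The count was 29 without replicate 2 and 41 without replicate 3, against 10.7% and 16.4% of all genes called in these fits. With all arrays scaled to the same spread, 0 members and 0 of all genes were called. There 61 members had an unadjusted p under 0.05 and the median was 0.54. The share of all genes at an unadjusted p was not counted with an array left out or with scaling.

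The family's shift was present on each lipid-loaded array. On replicates 1, 2 and 3 the median of the members was 0.90, 0.57 and 0.56. On each of them 73 of 77 members were positive. Replicate 1 was thus the highest array, and replicates 2 and 3 were nearly level. A member at the family's median exceeded 90.5%, 83.3% and 83.8% of all genes on these arrays, so it did not rank among the most extreme genes. Of the members, 70 were positive on every lipid-loaded array, as were 38.3% of all genes.

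**Figure D1:**
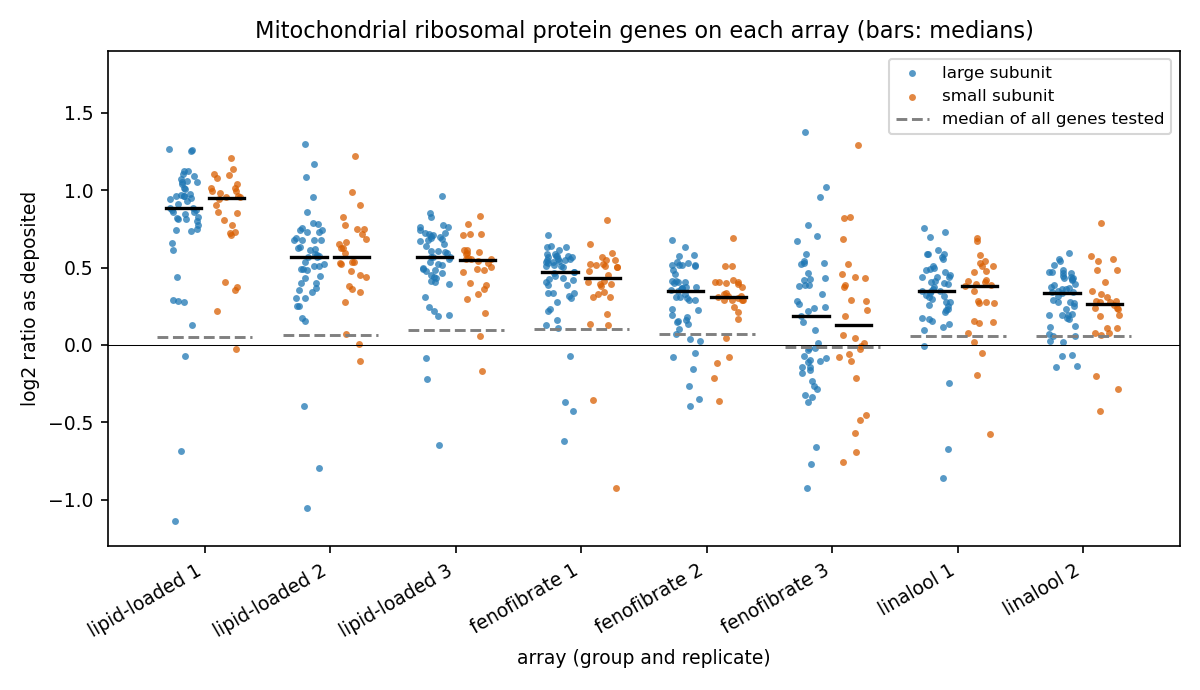
Log2 ratio as deposited of each of the 77 genes (points) on each of the 8 arrays, with large-subunit genes in blue and small-subunit genes in orange, black bars at the median of each subunit and dashed lines at the median of all genes tested. On every array but fenofibrate replicate 3, at least 67 of the 77 genes lie above 0, and on that array 45 do.

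Among large-subunit genes, 39 of 49 were called positive and 1 negative, with a median of 0.72. MRPL58, a peptidyl-tRNA hydrolase built into the large subunit that frees stalled ribosomes, had the highest mean. Its log2 ratios on lipid-loaded replicates 1, 2 and 3 were 1.26, 0.86 and 0.83, with a mean of 0.98 (SE 0.19, limma adjusted p = 0.0135). On fenofibrate replicates 1, 2 and 3 they were 0.71, 0.63 and −0.14, and on linalool replicates 1 and 2 they were 0.76 and 0.59. All 3 lipid-loaded values lay above those of the other 5 arrays, and fenofibrate replicate 3 was the only negative one.

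MRPL23, whose bacterial relative L23 lies at the exit of the peptide tunnel, came next. Its lipid-loaded ratios were 1.04, 1.08 and 0.56, with a mean of 0.89 (SE 0.16, limma adjusted p = 0.0135). Its fenofibrate ratios were 0.46, 0.36 and 0.53, and its linalool ratios were −0.01 and −0.14. The groups did not overlap: lipid-loaded arrays were the highest, fenofibrate arrays lay between, and both linalool arrays were just below 0, where its 2 probes averaged −0.18 and 0.03.

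MRPL28 stood opposite to the family and was its only member called negative. It is a relative of bacterial L28. Its lipid-loaded ratios were −1.14, −1.05 and −0.64, with a mean of −0.94 (SE 0.21, limma adjusted p = 0.0142). On the fenofibrate arrays they were −0.37, −0.40 and 0.42, and on the linalool arrays −0.67 and 0.06. It was the lowest member on each lipid-loaded array, while linalool replicate 1 lay just below lipid-loaded replicate 3. MRPL28 was read by 1 probe, so no other probe could check it. Its call was lost without lipid-loaded replicate 1 (limma adjusted p = 0.102) and without replicate 2 (limma adjusted p = 0.0534). It was also lost with all arrays scaled to the same spread (limma adjusted p = 0.0752).

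The start regions of 4 members are shown because they contrast the highest and the only negatively called gene of the lipid-loaded arrays with the highest mean over all 3 fenofibrate arrays and the lowest of the linalool arrays. Each runs from 250 bases before to 30 bases after the transcript start, 5′ to 3′ on the gene's strand, from RefSeq on GRCh38.p14. MRPL58 lies at chr17:75012420-75012699 on the plus strand, MRPL28 at chr16:370509-370788 on the minus strand, MRPS10 at chr6:42217832-42218111 on the minus strand and MRPS2 at chr9:135500432-135500711 on the plus strand. Capitals mark matches, on either strand, to CCGGAAG, a core bound by ETS factors such as GABPA, and to AAGATGGC, the core of YY1 sites.
MRPL58: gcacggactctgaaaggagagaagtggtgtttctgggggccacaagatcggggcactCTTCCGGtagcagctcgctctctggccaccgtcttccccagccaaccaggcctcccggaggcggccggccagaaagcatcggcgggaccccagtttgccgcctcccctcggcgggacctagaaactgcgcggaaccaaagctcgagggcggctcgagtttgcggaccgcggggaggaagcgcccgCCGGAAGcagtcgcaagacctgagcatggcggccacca
MRPL28: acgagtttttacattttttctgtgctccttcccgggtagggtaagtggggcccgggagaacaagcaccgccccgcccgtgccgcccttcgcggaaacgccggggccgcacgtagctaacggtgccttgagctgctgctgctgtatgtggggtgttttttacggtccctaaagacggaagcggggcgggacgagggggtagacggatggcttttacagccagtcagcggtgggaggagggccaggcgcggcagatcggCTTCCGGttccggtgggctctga
MRPS10: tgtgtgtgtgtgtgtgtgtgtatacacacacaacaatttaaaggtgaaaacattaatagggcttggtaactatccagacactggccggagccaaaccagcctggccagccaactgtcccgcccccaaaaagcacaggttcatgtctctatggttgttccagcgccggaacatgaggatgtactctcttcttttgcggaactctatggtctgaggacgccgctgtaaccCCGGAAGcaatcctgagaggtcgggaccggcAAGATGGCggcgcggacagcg
MRPS2: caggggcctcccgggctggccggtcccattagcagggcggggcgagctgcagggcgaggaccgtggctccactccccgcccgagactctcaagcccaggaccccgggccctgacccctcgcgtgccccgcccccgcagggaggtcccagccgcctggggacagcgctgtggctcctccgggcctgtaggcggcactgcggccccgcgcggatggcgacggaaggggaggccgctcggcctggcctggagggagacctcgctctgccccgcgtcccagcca
MRPL58 and MRPL28, at opposite ends of the lipid-loaded arrays, both held the ETS core, and MRPS2 held none of the motifs searched. Windows of 300 bases, reaching 50 bases past the start, were found for 69 of the 77 genes, with none for MRPL10, MRPL13, MRPL15, MRPL2, MRPL21, MRPL23, MRPL35 and MRPS28. CCGGAAG was in 29 of the 69 (42.0%) and in 14.2% of the windows of all 15843 coding genes. AAGATGGC was in 20 (29.0%) against 3.9%. An NRF1 motif of 10 bases, also searched on either strand, was in 8 (11.6%) against 8.6%. A match describes letters in the window and was not tested for binding. Of the windows, 45 of 69 (65.2%) held at least 1 of them, against 23.6% of all coding windows.

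The other highest large-subunit genes were close to each other. MRPL21 had a mean of 0.88 (SE 0.17), MRPL27, whose bacterial relative reaches the peptidyl transferase centre, 0.87 (SE 0.16), MRPL40 0.85 (SE 0.19) and MRPL18, of the central protuberance, 0.85 (SE 0.19). Their limma adjusted p-values lay between 0.0135 and 0.0138. Each of the 4 was highest on lipid-loaded replicate 1, from 1.07 for MRPL27 to 1.27 for MRPL18, and positive on all 3 lipid-loaded arrays. Neighbours in this order differed by less than their standard errors.

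Large-subunit genes taken for their known roles were all called positive on the lipid-loaded arrays. MRPL12, which forms the stalk that recruits translation factors, had ratios of 0.80, 1.17 and 0.45 (mean 0.81, limma adjusted p = 0.0137). MRPL11, at the base of that stalk, had 0.86, 0.68 and 0.72 (mean 0.75, limma adjusted p = 0.0135). MRPL44, which has a fold related to ribonuclease III and is mutated in an infantile cardiomyopathy, had 1.06, 0.69 and 0.60 (mean 0.78, limma adjusted p = 0.0135). These 3 genes were positive on every lipid-loaded array, with MRPL12 the most spread and MRPL11 the least. MRPL45, which ties the ribosome to the inner membrane, had 0.87, 0.76 and 0.52 (mean 0.72, limma adjusted p = 0.0221). MRPL3, a protein of the core also mutated in cardiomyopathy, had 0.96, 0.25 and 0.71 (mean 0.64, limma adjusted p = 0.0199). MRPL41 had 0.87, 0.52 and 0.72 (mean 0.70, limma adjusted p = 0.0165).

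Among small-subunit genes, 22 of 28 were called positive and none negative, all 28 had a positive mean, and the median was 0.67. MRPS24, a relative of bacterial S3 near the entry of the message, had ratios of 1.14, 0.65 and 0.78 (mean 0.85, SE 0.19, limma adjusted p = 0.0138). MRPS22, mutated in a respiratory chain deficiency, had 1.02, 0.75 and 0.72 (mean 0.83, SE 0.16, limma adjusted p = 0.0135). MRPS34, mutated in Leigh syndrome, had 0.95, 0.99 and 0.49 (mean 0.81, SE 0.17, limma adjusted p = 0.0135). All 3 were positive on every lipid-loaded array. MRPS7, the relative of S7 in the head of the subunit, had a mean of 0.79 (SE 0.17), MRPS5 0.69 (SE 0.16) and MRPS16, in which a mutation first tied a mitoribosomal protein to human disease, 0.67 (SE 0.19), with limma adjusted p-values from 0.0135 to 0.0218.

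Some small-subunit genes held back. MRPS12, the relative of the decoding protein S12, had 0.36, 0.28 and 0.36, with a mean of 0.33 (SE 0.17, limma adjusted p = 0.129). MRPS25 had −0.02, 0.48 and −0.17 (mean 0.10, limma adjusted p = 0.749), and MRPS14 had 0.22, 0.07 and 0.06 (mean 0.12, limma adjusted p = 0.574). The means of MRPS12 and MRPS14 each joined probes of opposed sign, at −0.08 and 0.74 for MRPS12 and −0.35 and 0.58 for MRPS14. MRPS2, the relative of S2, had 0.41, 1.22 and 0.20, with a mean of 0.61 (SE 0.22, limma adjusted p = 0.0491). The call was lost with quantile normalization and with arrays centred on their medians or scaled to the same spread. It was lost too among only genes of 1 probe and with unmoderated statistics. Replicate 2 alone was above 1, and without it the mean was 0.31 (limma adjusted p = 0.325). The call was also lost without any other lipid-loaded array, without fenofibrate replicate 2 and without either linalool array.

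The 3 relatives of bacterial S18 differed in their values. MRPS18A, which sits in the large subunit in spite of its symbol, had 1.04, 0.90 and 0.61 (mean 0.85, SE 0.21, limma adjusted p = 0.0163). MRPS18B had 0.85, 0.45 and 0.51 (mean 0.60, SE 0.22, limma adjusted p = 0.0527). MRPS18C had 0.38, 0.00 and 0.33 (mean 0.24, SE 0.18, limma adjusted p = 0.296). All but the near-0 value of MRPS18C on replicate 2 were positive by more than 0.3, and the ranges of MRPS18A and MRPS18B overlapped. The difference between these genes was not tested.

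At the low end of the large subunit, MRPL16, a relative of bacterial L16, had −0.69, −0.79 and 0.19 (mean −0.43, SE 0.26, limma adjusted p = 0.195). MRPL39 had 0.29, −0.40 and −0.08 (mean −0.06, limma adjusted p = 0.791), MRPL43 had 0.13, 0.18 and −0.22 (mean 0.03, limma adjusted p = 0.921) and MRPL17 had −0.07, 0.31 and 0.19 (mean 0.14, limma adjusted p = 0.489). For MRPL39, MRPL43 and MRPS18C the low mean joined 2 probes of opposed sign, each at an unadjusted p under 0.05. The probes of MRPL39 averaged 0.68 and −0.80, those of MRPL43 −0.67 and 0.73, and those of MRPS18C 0.94 and −0.46. With all 27 genes of several probes considered, 7 had probes of opposed sign (also MRPL17, MRPL22, MRPS12 and MRPS14), and the median range between the probes of a gene was 0.14. So 5 of the 8 lowest members joined opposed probes, while MRPL28, MRPL16 and MRPS25 were read by 1 probe each. Several mitoribosomal genes have processed pseudogenes, and which transcripts each probe binds was not tested.

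**Figure D2:**
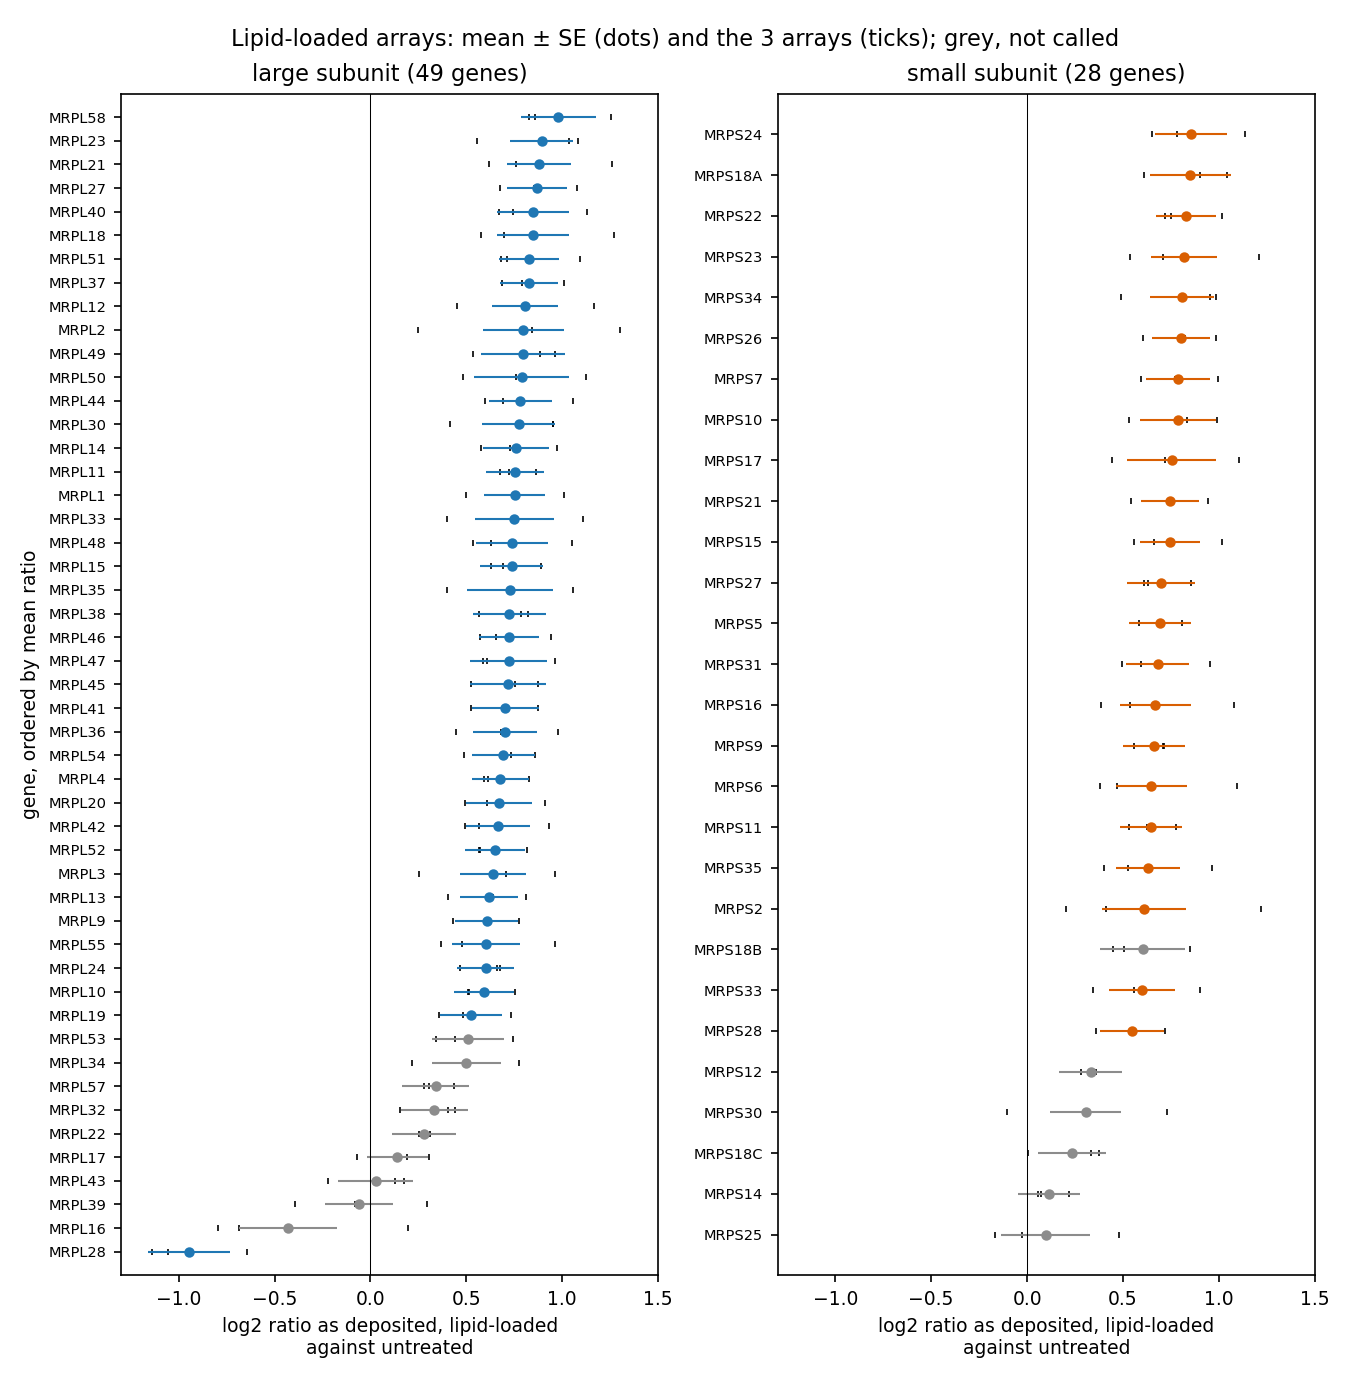
Mean log2 ratio as deposited of each gene on the 3 lipid-loaded arrays with its standard error from limma (dot and line) and the 3 array values (ticks), for 49 large-subunit and 28 small-subunit genes in order of their means. Coloured genes passed an adjusted p of 0.05, grey genes did not, and MRPL28 at −0.94 is the only coloured gene left of 0.

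The means of large and small subunit were close on every array. On the lipid-loaded arrays the mean over genes was 0.60 ± 0.15 (SD, n = 3) for the large and 0.63 ± 0.18 for the small subunit, and the difference of large minus small was −0.05, −0.05 and 0.02 on replicates 1, 2 and 3. On the fenofibrate arrays the means were 0.28 ± 0.12 and 0.26 ± 0.11 (SD, n = 3), with differences of 0.03, 0.01 and 0.02. On the linalool arrays they were 0.30 ± 0.03 and 0.27 ± 0.04 (SD, n = 2), with differences of 0.01 and 0.04. The SD of the difference over the arrays of a group was 0.0414, 0.0071 and 0.018 for lipid-loaded, fenofibrate and linalool. Members are not replicates, so no p-value is given for the subunits. Proteins with bacterial relatives and those specific to mitochondria were also close on the lipid-loaded arrays. In the large subunit, MRPS18A and MRPS30 included, 24 of 29 conserved genes (median 0.70) and 17 of 22 specific genes (median 0.72) were called in either direction. In the small subunit these were 13 of 16 (median 0.67) and 8 of 10 (median 0.69).

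**Figure D3:**
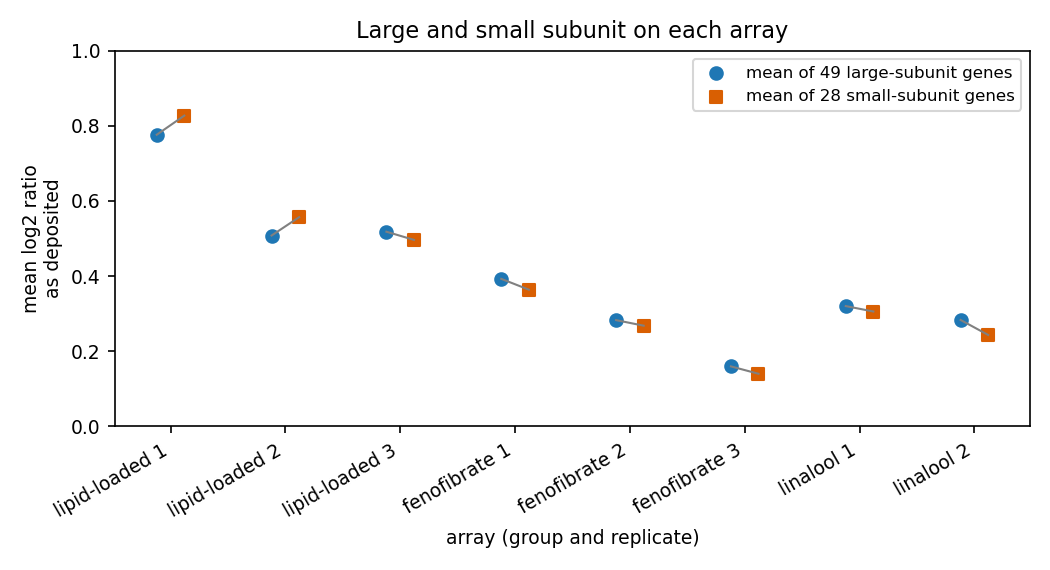
Mean log2 ratio as deposited over 49 large-subunit genes (circles) and 28 small-subunit genes (squares) on each of the 8 arrays. On no array do the 2 means lie more than 0.05 apart after rounding, while the arrays range from 0.16 on fenofibrate replicate 3 to 0.78 on lipid-loaded replicate 1 for the large subunit.

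In fenofibrate against untreated cells most members were again positive, with a smaller median. Of 77 genes 67 were positive, with a median of 0.30 against 0.02 over all genes. limma called 0 members and 0% of all genes, and the smallest adjusted p of a member was 0.139. At an unadjusted p under 0.05 there were 26 members, where 18.1% of all genes passed. With limma's trend and robust settings 16 members were called, all positive, against 5.40% of all genes. On replicates 1, 2 and 3 the members' median was 0.47, 0.32 and 0.19, and 71, 67 and 45 members were positive. The third array was also the widest, with an SD among members of 0.46 against 0.29 and 0.24. Without it the median was 0.39, with 70 members positive and 35 at an unadjusted p under 0.05. The share of all genes at that threshold was not counted without this array.

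MRPS10 had the highest fenofibrate mean. Its ratios were 0.57, 0.29 and 1.29 on the fenofibrate arrays (mean 0.72, SE 0.20, limma adjusted p = 0.140), 0.99, 0.53 and 0.83 on the lipid-loaded arrays and 0.47 and 0.49 on the linalool arrays. Replicate 3 gave its highest value of all 8 arrays. The same was true of MRPL49, with 0.43, 0.18 and 1.38 (mean 0.66, limma adjusted p = 0.167), and of MRPL41, with 0.51, 0.29 and 1.02 (mean 0.61, limma adjusted p = 0.145). MRPL3 had 0.43, 0.68 and 0.70 (mean 0.61, limma adjusted p = 0.143), without such a gap. Without fenofibrate replicate 3 the means of MRPS10, MRPL49 and MRPL41 were 0.43, 0.31 and 0.40, and MRPS24 (0.75) and MRPL58 (0.67) ranked highest instead.

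At the low end, MRPS25 had fenofibrate ratios of −0.92, −0.36 and 0.39 (mean −0.30, limma adjusted p = 0.521) and MRPL16 −0.43, −0.35 and −0.11 (mean −0.30, limma adjusted p = 0.569). MRPL35, a relative of bacterial L35, had 0.28, −0.05 and −0.92 (mean −0.23, limma adjusted p = 0.616). MRPL57 had −0.62, 0.07 and −0.02 (mean −0.19, limma adjusted p = 0.598). MRPL16 alone of these was negative on all 3 arrays. For the other 3 a single array set the sign, and on fenofibrate replicate 1 the probes of MRPL57 were at 0.12 and −1.36. Without fenofibrate replicate 3 the mean of MRPL35 was 0.11, and without replicate 1 the means of MRPL57 and MRPS25 were 0.0248 and 0.0132. The mean of MRPS25 without replicate 3 was −0.64.

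In linalool against untreated cells 71 members were positive, with a median of 0.32 against 0.04 over all genes. limma called 0 members and 0% of all genes, with 0 members also under its trend and robust settings. The smallest adjusted p of a member was 0.305, and 15 members had an unadjusted p under 0.05, as did 12.4% of all genes. On replicates 1 and 2 the members' median was 0.36 and 0.28, and 70 members were positive on each. On both arrays 66 members were positive, against 38.6% of all genes.

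MRPL58 again had the highest mean, at 0.67 (SE 0.24, limma adjusted p = 0.336). MRPL46 had 0.73 and 0.52 (mean 0.62, limma adjusted p = 0.305), MRPS24 0.69 and 0.56 (mean 0.62, limma adjusted p = 0.353) and MRPS14 0.41 and 0.79 (mean 0.60, limma adjusted p = 0.323). MRPS14 was thus among the lowest members on the lipid-loaded arrays and among the highest here. Its 2 probes were apart on both: they averaged −0.35 and 0.58 on the lipid-loaded and 0.82 and 0.37 on the linalool arrays. MRPS2 had the lowest mean, with −0.57 and −0.42 (mean −0.50, SE 0.27, limma adjusted p = 0.450), and was negative on both arrays, as was MRPS25 with −0.05 and −0.28 (mean −0.17, limma adjusted p = 0.813). MRPL16 had −0.86 and 0.47 (mean −0.19, limma adjusted p = 0.802), and MRPL28 averaged −0.31 (limma adjusted p = 0.618). For MRPL16 and MRPL28 the arrays disagreed in sign, and without linalool replicate 1 their values were 0.47 and 0.06.

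The groups were then set against each other. They share the untreated partner, and each difference reuses the arrays of the ratios above, so the 3 comparisons are not independent. For fenofibrate minus lipid-loaded, 72 of 77 members had a negative difference, with a median of −0.36 against −0.06 over all genes. limma called 0 members and 0% of all genes, also with its trend and robust settings. The smallest adjusted p of a member was 0.472, and 10 members had an unadjusted p under 0.05, as did 10.3% of all genes. In 36 members all fenofibrate arrays lay below all lipid-loaded arrays, against 12.4% of all genes, and in 1 they lay above, against 6.39%. Scaling all arrays to the same spread took the members' median to −0.17, with 61 of 77 negative, and quantile normalization took it to −0.24, with 70 negative.

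MRPL35 had the most negative difference at −0.96 (SE 0.32, limma adjusted p = 0.472), from lipid-loaded ratios of 1.05, 0.73 and 0.40. Its fenofibrate replicate 3 was the lowest of any member on that array, and without that array the difference was −0.62. MRPL45 differed by −0.77 (SE 0.28), MRPS27, a protein with pentatricopeptide repeats, by −0.77 (SE 0.25) and MRPS18A by −0.75 (SE 0.30), each at a limma adjusted p of 0.472. MRPL45 had fenofibrate ratios of 0.33, 0.16 and −0.66, MRPS18A had 0.55, 0.32 and −0.57, and MRPS27 had 0.31, −0.08 and −0.45. In all 3 genes the fenofibrate arrays lay below the lipid-loaded arrays, with replicate 3 the lowest. Without that array the differences were −0.47 for MRPL45, −0.42 for MRPS18A and −0.58 for MRPS27. At the other end, MRPL28 differed by 0.83 (SE 0.30, limma adjusted p = 0.472) and was the member whose fenofibrate arrays all lay above. MRPS14, MRPL39 and MRPS18C differed by 0.19, 0.16 and 0.14, with limma adjusted p-values from 0.716 to 0.808. Without fenofibrate replicate 3 they differed by 0.24, 0.0661 and −0.0174. Each joined probes of opposed sign, at 0.63 and −0.26 for MRPS14, 0.76 and −0.44 for MRPL39 and −0.20 and 0.47 for MRPS18C.

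For linalool minus lipid-loaded, 72 of 77 members also had a negative difference, with a median of −0.33 against −0.06 over all genes. limma called 0 members and 0% of all genes, with 0 members also under its trend and robust settings. The smallest adjusted p of a member was 0.342, and 6 members had an unadjusted p under 0.05, as did 11.6% of all genes. In 52 members both linalool arrays lay below all lipid-loaded arrays, against 24.3% of all genes, and in 2 (MRPL39 and MRPS14) they lay above, against 12.7%. With all arrays at the same spread the median was −0.11, with 52 of 77 negative, and with quantile normalization it was −0.18, with 62 negative.

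MRPS2 had the most negative difference at −1.11 (SE 0.35, limma adjusted p = 0.355) and MRPL23 the next at −0.97 (SE 0.26, limma adjusted p = 0.342). In both genes, every lipid-loaded array was positive and every linalool array negative, a pattern not counted over all genes. MRPS27 had linalool ratios of −0.19 and 0.08 and differed by −0.76 (limma adjusted p = 0.381). MRPS34 had 0.08 and 0.11 and differed by −0.71 (limma adjusted p = 0.381). MRPL28, MRPS14, MRPL39 and MRPL16 were at the positive end with differences of 0.64, 0.48, 0.43 and 0.23 and limma adjusted p-values from 0.487 to 0.825. All 4 were also the lowest or among the lowest members on the lipid-loaded arrays. For MRPS14 and MRPL39 the difference joined probes of opposed sign, at 1.17 and −0.20 for MRPS14 and 1.12 and −0.26 for MRPL39.

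**Figure D4:**
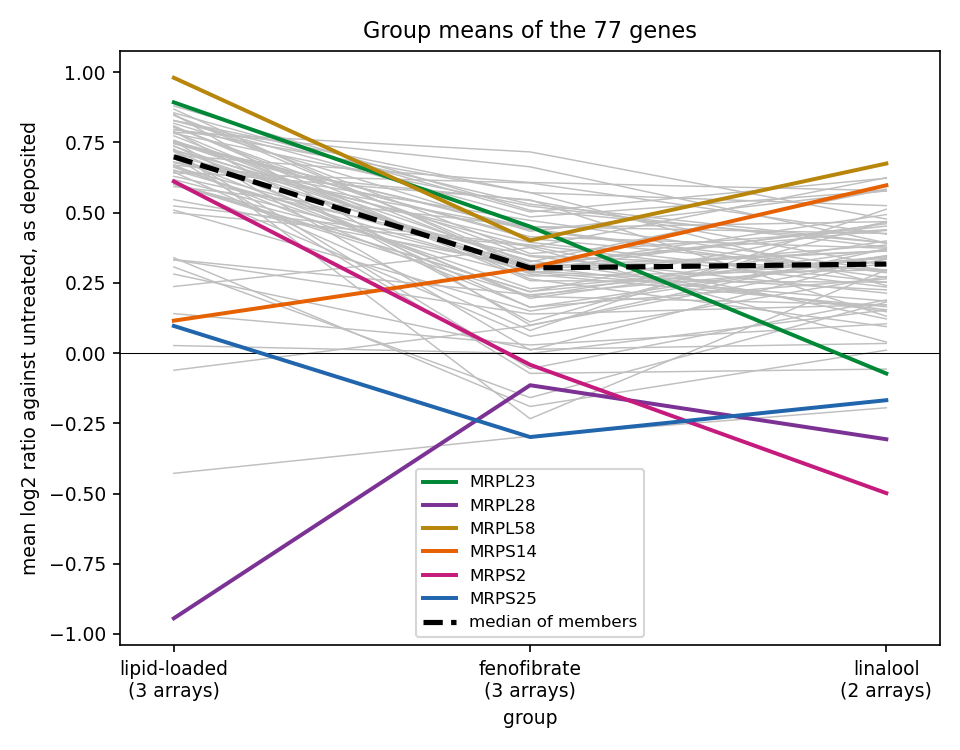
Mean log2 ratio as deposited of each of the 77 genes (lines) in the lipid-loaded (3 arrays), fenofibrate (3 arrays) and linalool (2 arrays) groups, each against untreated cells, with 6 genes in colour and the median of the members dashed. The median is 0.70, 0.30 and 0.32, while MRPL28 and MRPS14 have their lowest mean in the lipid-loaded group and MRPL23 and MRPS2 theirs in the linalool group.

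Linalool minus fenofibrate showed no common direction, with 43 members positive and 34 negative and a median of 0.03. limma called 0 members and 0% of all genes, 0 members under its trend and robust settings, and 0 members had an unadjusted p under 0.05, where 5.02% of all genes did. In 7 members the linalool arrays lay below all fenofibrate arrays and in 6 above, against 11.2% and 8.86% of all genes. MRPL23, MRPS2, MRPS6 and MRPS18C had the most negative differences, of −0.52, −0.46, −0.41 and −0.34. MRPL35, MRPS11, MRPL50 and MRPS30 had the most positive, of 0.53, 0.43, 0.36 and 0.34. Their standard errors were between 0.26 and 0.39 and their limma adjusted p-values at least 0.966. MRPL50 had a fenofibrate replicate 3 value of −0.77 against 0.57 and 0.53 on the other 2. Without that array its difference was −0.0847, and those of MRPL35 and MRPS11 were 0.18 and 0.29. Those of MRPS2, MRPS6 and MRPS18C were then −0.68, −0.28 and −0.18.

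The position of the members among all genes was also taken on each array. The members' median divided by the SD over all genes was 1.02 to 1.31 on the lipid-loaded arrays, 0.394 to 0.918 on the fenofibrate and 0.653 to 0.821 on the linalool arrays. The median member exceeded 67.7% to 79.3% of all genes on the fenofibrate arrays and 72.8% to 79.2% on the linalool arrays, and these ranges did not reach the 83.3% of the lowest lipid-loaded array. The part of the arrays' spread in the differences between groups was not tested further than by the scaled values above. Across all 8 arrays, 37 members were positive on every one, against 13.2% of all genes. MRPL16, MRPL28 and MRPS25 were each negative on 6 arrays, the most of any member.

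Other genes of mitochondrial translation had positive medians as well on the lipid-loaded arrays. Of the mitoribosomal proteins with other symbols, 3 of 4 measured were called, all positive: GADD45GIP1 at 0.90, the GTP-binding protein DAP3 at 0.83 and CHCHD1 at 0.61, while PTCD3 was at 0.13. Of 24 assembly and rRNA modification genes, 14 were called positive and 0 negative (median 0.60), with the rRNA methyltransferase MRM2 at 0.79 and the anti-association factor MALSU1 at 0.78. NSUN4, an rRNA methyltransferase of mitoribosome assembly, was lowest at −0.69 (SE 0.27, limma adjusted p = 0.0630), from −1.47, −0.63 and 0.02 on the 3 arrays. Of 16 translation factors and partners, 9 were called, all positive (median 0.53), among them TUFM, the mitochondrial elongation factor Tu, at 0.74, and SLIRP, an RNA-binding partner of LRPPRC, at 0.75. Of 16 mitochondrial aminoacyl-tRNA synthetases, 8 were called, all positive (median 0.53), with YARS2 at 0.76 and IARS2 at 0.74. In the order given, 75%, 58.3%, 56.2% and 50% of these lists were called positive, against 24.1% of all genes.

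Of 10 genes for mitochondrial DNA and its transcription, 8 were called, all positive (80%, against 24.1% of all genes), with a median of 0.67. TFAM, which packs mitochondrial DNA and starts its transcription, was at 0.85 (SE 0.17, limma adjusted p = 0.0135) and SSBP1, which binds single-stranded DNA at the replication fork, at 0.85 (SE 0.19, limma adjusted p = 0.0140). Of 9 regulators of mitochondrial biogenesis, 4 were called (44.4%, against 34.8% of all genes), all positive, with MYC at 0.72 and YY1 at 0.71. The coactivators PPARGC1A and PPARGC1B were at −0.22 and −0.25, with limma adjusted p-values of 0.454 and 0.308. By limma none of these lists had a call on the fenofibrate or linalool arrays, where their medians lay between 0.10 and 0.34 and between 0.14 and 0.48. At an unadjusted p under 0.05, assembly genes had 6 and 2, translation factors 4 and 2, synthetases 2 and 1, genes for mitochondrial DNA 3 and 1, proteins with other symbols 1 and 3, and regulators 1 and 0 in these groups, where 18.1% and 12.4% of all genes passed. The synthetases, 2 and 1 of 16, and the regulators, 1 and 0 of 9, lay below those shares, as did in the linalool group the assembly genes, 2 of 24, and the genes for mitochondrial DNA, 1 of 10.

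Cytosolic ribosomal proteins, taken by symbol with like proteins included, were mostly positive too. On the lipid-loaded arrays 57 of 78 were called positive and 3 negative (76.9% in all, against 34.8% of all genes). Their median was 0.78, with RPS25 and RPL37A highest at 1.03 and 1.02. RPL24 was lowest at −1.09 (SE 0.23, limma adjusted p = 0.0135), and 11 of the 78 had a negative mean, against 3 of the 77 mitochondrial ones. Their lower quartile was 0.34, against 0.60. Their medians were 0.47 in the fenofibrate and 0.44 in the linalool group, where 51 and 42 of them had an unadjusted p under 0.05, against 26 and 15 mitochondrial ones. The difference between both kinds of ribosomal protein was not tested.

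Gene lists from outside translation were set beside the family. Of 9 hepatocyte markers measured, 8 were called positive on the lipid-loaded arrays (88.9%, against 24.1% of all genes). Their median was 0.63, with APOA1 at 0.99 and AFP at 0.93. They did not follow the family on every array: on fenofibrate replicate 3 their median was 0.79, while the family had its lowest, and on linalool replicate 2 it was −0.0631, with 3 of 9 positive. Of 10 markers of other cells, 1 was called positive (CD68 at 0.81) and 3 negative (40% in all, near the 34.8% of all genes). ADIPOQ at −1.87 and CDH5 at −1.11 were the lowest of these markers. The median of the 10 markers was −0.33, and on each array from 2 to 7 of them were positive. Of 296 genes with olfactory receptor symbols, a family best known from the nose, 15 were called positive and 46 negative (20.6% in all, against 34.8% of all genes), with a median of −0.34. On lipid-loaded replicates 1, 2 and 3 the olfactory receptors' median was −0.40, −0.29 and −0.25, on fenofibrate replicates −0.29, −0.14 and −0.0039 and on linalool replicates −0.14 and −0.17. The array with the highest median of mitoribosomal genes thus had the lowest of olfactory receptors, and fenofibrate replicate 3 had the smallest of both in size. The values used here hold no spot brightness, and the part of brightness in the family's ratios was not tested.

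**Figure D5:**
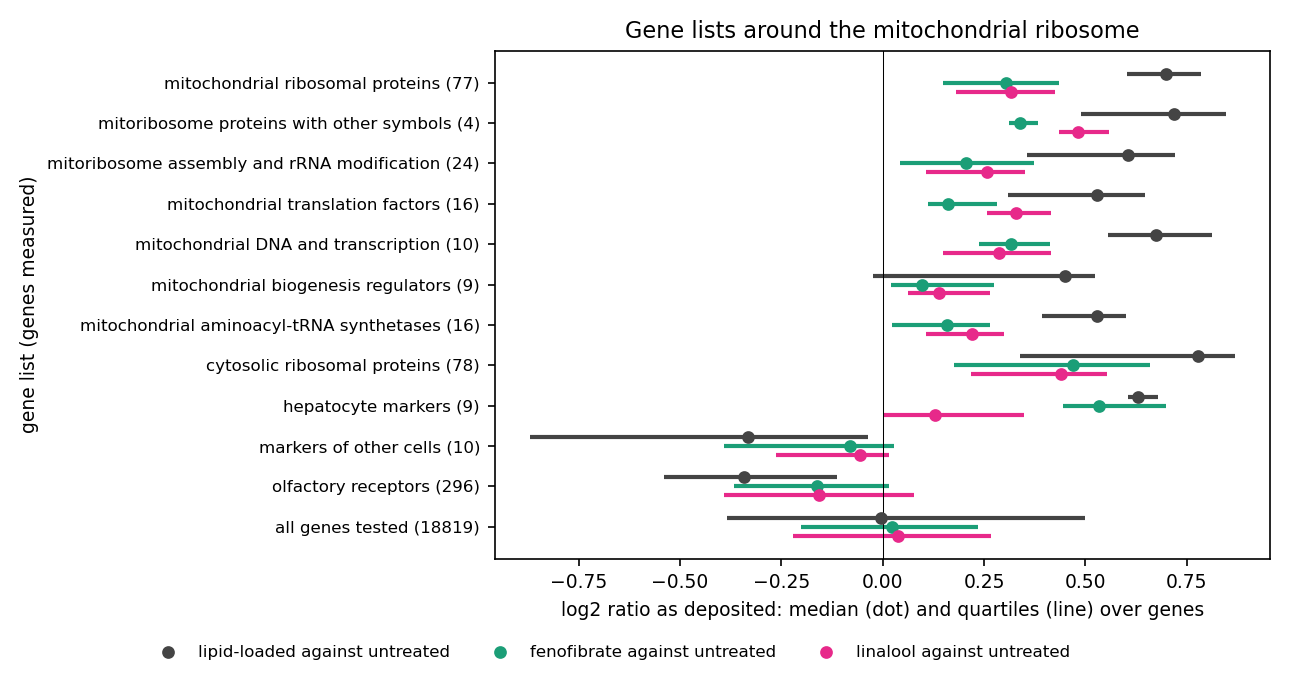
Median (dot) and quartiles (line) of the log2 ratio as deposited over the genes of each list, with the number of genes measured in brackets, for the lipid-loaded, fenofibrate and linalool groups against untreated cells. The lists of mitochondrial translation and of cytosolic ribosomal proteins have positive medians in all 3 groups, while markers of other cells and olfactory receptors have negative ones.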

How the data were processed

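The data are 8 arrays of 2 colours, in the 3 groups given above. Per the labels' protocols, 8 µg of total RNA per sample was primed with oligo(dT) and the products carried Cy3 or Cy5. The authors deposited a processed log2 ratio per probe. The sources used here do not name the scanner, the background correction or the normalization. That the values are base 2 was settled from the values: on every array 100% of those checked equalled the log2 of some number with 3 decimals after 1 constant was taken off (tolerance 0.0001, ratios from 0.2 to 2). Each column's mean was within 5.93e-05 of 0, and column medians over probes ran from −0.012 to 0.0865. The numerator is unknown.

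Probes were named from the platform annotation (25053 with 1 symbol, 0 with several, 4134 unnamed and left out) and averaged per gene on the log2 scale. Of 18821 genes, 18819 had at least 2 values in each group and were fitted. A fit in limma 3.58.1 (R 4.3.3) held 1 coefficient per group. Ratios were tested against 0, and groups against each other, two-sided, with Benjamini-Hochberg adjustment over all genes. The test against 0 takes in the spread of untreated cells only if arrays had separate untreated samples, and the labels name no separate cultures. Standard errors are those of the fit. The limma script was tested on simulated data.

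Genes named were the 8 highest and 8 lowest members on the lipid-loaded arrays, the 4 highest and 4 lowest in each other comparison, a set by role, members with opposed probes, and at most 2 genes at each end of every other list. Members and lists were chosen with earlier results of these data known, and olfactory receptors were added after the data were seen. Alternatives tried were quantile normalization, centring, scaling to the same spread, other probe summaries, array weights, other variance settings, a replicate block, fits of fewer groups and leaving out each array.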

Additional observations from a re-analysis of the deposited data

Results flagged for a closer look

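MRPL23 and MRPS2 had opposite signs in different groups on every array. The share of all genes with such opposite signs was not counted. By the looser measure of arrays that did not overlap, linalool lay below lipid-loaded in 24.3% of all genes. It lay below fenofibrate in 11.2% and above in 8.86%. MRPL23 was positive on all lipid-loaded and all fenofibrate arrays and negative on both linalool arrays, which gave differences of −0.97 for linalool minus lipid-loaded (SE 0.26, limma adjusted p = 0.342) and −0.52 for linalool minus fenofibrate (SE 0.26, limma adjusted p = 0.966). Its 2 probes were opposed in the linalool group, with means of −0.18 and 0.03, and the second was positive, at 0.14, on linalool replicate 1. MRPS2 was positive on all lipid-loaded and negative on both linalool arrays, with a difference of −1.11 (SE 0.35, limma adjusted p = 0.355). MRPS30 was negative on all fenofibrate arrays, at −0.35, −0.11 and −0.01, and positive on both linalool arrays, at 0.02 and 0.35, with a difference of 0.34 (SE 0.29, limma adjusted p = 0.989). None of these differences passed limma's adjusted threshold. Several of the single values lie close to 0, such as −0.01 for MRPL23 on linalool replicate 1 and −0.01 for MRPS30 on fenofibrate replicate 3.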

How the results depend on the processing

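Of the 62 members called on the lipid-loaded arrays, 0 remained after scaling every array to 1 common spread (where adjusted p-values began at 0.0594) and 0 when lipid-loaded replicate 1 was left out (0.0987). Neither setting called any gene of the whole table. Leaving out each array in turn gave 0 to 65 calls, with 29 without lipid-loaded replicate 2 and 41 without replicate 3. Of all genes, 10.7% and 16.4% were called in the last 2 fits, against 34.8% with all arrays. Quantile normalization and unmoderated statistics left 48 of the 62, and genes with 1 probe 43 (of 50 such members). Of all genes, 15.3%, 21.2% and 31.4% were called in these 3 settings. Leaving out every member with probes of opposed sign in any comparison left 52 (added after seeing the data). That also removed members whose probes shared a sign on the lipid-loaded arrays. Array weights and eBayes with trend and robust settings gave 65, with 38.2% and 35.9% of all genes called. The replicate block and fitting only the group compared gave 64, with 36% and 39.3% of all genes called. In the fenofibrate group eBayes with trend and robust settings gave 16 calls in place of 0, and leaving out any array gave 0 in every comparison but the lipid-loaded one, with a lone linalool array assumed to vary like the other groups. Large minus small was 0.02 in the fenofibrate group, and became 0.0598 over genes with 1 probe, −0.0131 with MRPS18A and MRPS30 counted as large and 0.0461 as a median over genes (both added after seeing the data). In the linalool group it was 0.03, and 0.0658 over genes with 1 probe. Signs of single means changed as follows, with the range over the arrays left out. In lipid-loaded cells MRPS25 ran from −0.10 to 0.23, MRPL43 from −0.0481 to 0.15 (−0.0044 with arrays centred) and MRPL39 from −0.24 to 0.11. In the fenofibrate group MRPL57 ran from −0.32 to 0.0248, MRPL35 from −0.49 to 0.11 and MRPS25 from −0.64 to 0.0132. In the linalool group MRPL16 ran from −0.86 to 0.47 (0.0068 with the replicate block) and MRPL28 from −0.67 to 0.0611. For fenofibrate minus lipid-loaded MRPL39 ran from −0.0080 to 0.34 and MRPS18C from −0.0174 to 0.26, for linalool minus lipid-loaded MRPL16 ran from −0.43 to 0.89, and for linalool minus fenofibrate MRPL50 ran from −0.0847 to 0.59. The cause of these changes was not tested, beyond the fewer arrays or genes that some of them use. Same-numbered arrays of different groups correlated in their deviations by −0.021 to 0.140, and others by −0.141 to 0.066, so the numbers were not taken as pairs. The alternatives that need a spot brightness were not run, since the values used here hold none. Median standard errors of the members were 0.173 for the groups of 3 arrays, 0.211 for linalool and 0.244 to 0.273 for differences.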
